A study of Mus musculus with 6 samples.

Results

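The 10 genes *Upk3b*, *Upk1b*, *Msln*, *Wt1*, *Tbx18*, *Krt8*, *Krt18*, *Krt19*, *Aldh1a2* and *Lrrn4* are markers of the epicardium and of mesothelium, and they were followed in bulk RNAseq of infarcted mouse left ventricles. They were chosen by symbol among the 17556 genes of the deposited table, where each of the 10 has a single row. Left ventricles came from 3 Cre-positive mice and 3 Cre-negative siblings aged 6 to 10 weeks, and were collected 4 days post injury (dpi) after permanent ligation of the left anterior descending artery. All 6 mice carried floxed alleles of both *Yap* copies and of a single *Wwtr1* copy, and all ate tamoxifen citrate chow from surgery onwards. The Cre-positive mice also carried a copy of MerCreMer, a Cre that needs tamoxifen to act, under the promoter of their own periostin gene, which is active in myofibroblasts, and the Cre-negative siblings had wildtype Periostin. The whole ventricle was homogenized, so the cells in which Cre acts are a part of the RNA, and the effect of the Cre allele itself cannot be told apart from that of the depletion.

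The epicardium is the sheet of mesothelium that covers the heart, and it is continuous with the lining of the pericardial sac. Its cells keep epithelial features, among them keratin filaments, uroplakins and mesothelin at the surface. In the embryo and after infarction they express the transcription factors Wt1 and Tbx18 and make retinoic acid, and some of them leave the sheet as mesenchymal cells. In a whole ventricle these genes report on a thin layer, and fewer epicardial cells cannot be told apart from less RNA in each of them.

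The estimated counts of all genes summed to between 13177888 and 14827579 per ventricle. *Myl2* and *Myl3*, myosin light chains of ventricular muscle, had at least 8655 and 4844 TPM (the deposited transcript abundance, scaled to length and library) in all 6, as a left ventricle should. The targeted genes did not differ between genotypes beyond the spread of the mice in whole tissue. The log2 fold change of Cre-positive over Cre-negative was 0.03 (standard error 0.09, adjusted p = 0.935) for *Yap1* and 0.05 (standard error 0.08, adjusted p = 0.876) for *Wwtr1*. Some ventricles stood apart in markers of other tissues. *Scgb1a1*, a secretory protein of airway epithelium, had 66.3 TPM in Cre-positive replicate 3 and 0.34 to 1.64 TPM in the other 5. The atrial light chain *Myl7* ranged from 18.1 TPM in Cre-positive replicate 2 to 611 TPM in Cre-positive replicate 1. Cre-negative replicate 1 had the highest level of *S100a8*, a neutrophil gene, with 152 TPM against 6.12 to 53.1 TPM in the others.

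All 10 markers were detected in every ventricle, with levels between 4.66 and 50.9 TPM, a scale on which genes can be set side by side. *Aldh1a2* had the highest mean level over the 6 ventricles, 37.9 ± 7.98 TPM (SD, n = 6), followed by *Upk3b* with 24.1 ± 13.6 TPM, *Krt18* with 21.1 ± 7.55 TPM and *Krt19* with 19.4 ± 9.47 TPM. *Upk1b* and *Msln* were nearly level, with 17.3 ± 9.4 TPM and 17.2 ± 11.6 TPM. *Wt1* had 12.9 ± 4.45 TPM, *Lrrn4* 11.5 ± 5.42 TPM and *Krt8* 10.99 ± 4.32 TPM, and *Tbx18* was lowest with 5.93 ± 1.08 TPM. Each gene overlapped in range with its neighbour in this order. Within a genotype, *Krt8* and *Lrrn4* changed places without Cre, *Upk1b* and *Msln* with Cre, and the only neighbours without overlap were *Krt8* (at least 12.02 TPM) and *Tbx18* (at most 7.87 TPM) in the Cre-positive ventricles.

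The comparison of genotypes asked whether these markers differ when *Yap* and a copy of *Wwtr1* are removed from myofibroblasts. The log2 fold change was above 0 for all 10 markers, from 0.24 (*Tbx18*) to 0.79 (*Msln*), with a median of 0.55 against 0.006 over the 13817 genes tested, of which 51.2% were above 0. None of the 10 passed an adjusted p of 0.05 in edgeR's quasi-likelihood test, where 0.00724% of all genes did. The adjusted p of the members lay between 0.714 and 0.818, and none passed with DESeq2 or limma either. By unadjusted p under 0.05, 1 of 10 was called (*Krt18*), against 5.83% of all genes in either direction and 2.85% of all genes higher with Cre. On normalized counts *Krt18* was also the only member with all 3 Cre-positive ventricles above all 3 Cre-negative ones, a separation seen for 7.55% of all genes, and no member had them all below (6.85% of all genes). By TPM *Tbx18* (at most 5.49 without Cre, at least 5.71 with it) and *Aldh1a2* (35.5 and 35.8) were separated too, by narrow gaps, and 3 of 10 members were so on this scale against 15% of all genes. In the plot of counts by genotype, 7 markers have Cre-negative replicate 1 above at least 2 of the 3 Cre-positive ventricles.

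**Figure D1:**
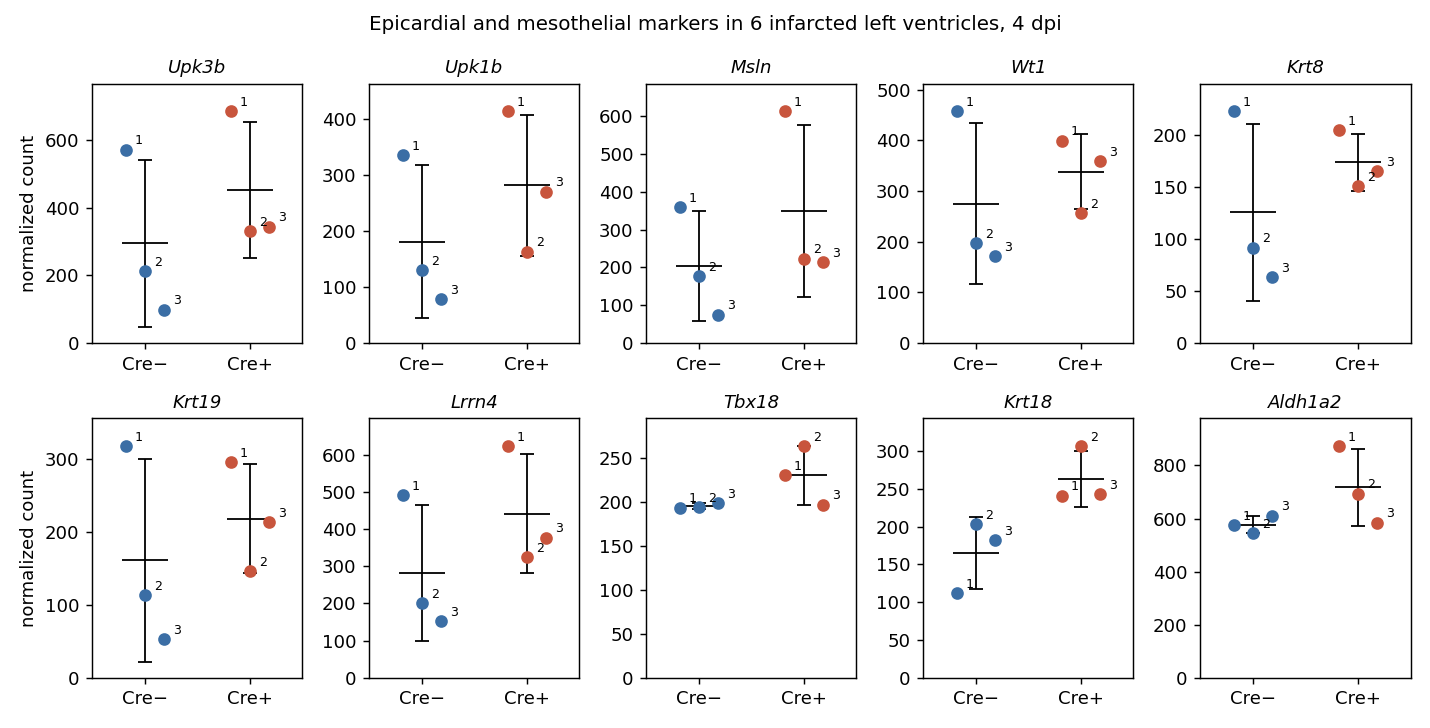
Normalized count (vertical axis) of each marker in 3 Cre-negative (blue) and 3 Cre-positive (red) ventricles, numbered by replicate, with black bars for mean and SD. In 7 panels replicate 1 of each genotype is the highest of its group and Cre-negative replicate 3 the lowest of all 6, whereas on this scale *Krt18* alone separates the genotypes.

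Among the genes of the mesothelial surface, *Upk3b* encodes a uroplakin, a membrane protein first known from bladder epithelium. Its gene is found at chr5:136038496-136044993, plus strand, in GRCm38.p6, the build used for all positions here. Its normalized counts were 571, 213 and 98.1 in Cre-negative replicates 1 to 3 and 685, 330 and 344 in the Cre-positive ones. Cre-negative replicate 1 lay above 2 of the 3 Cre-positive ventricles, so the groups overlapped. The means were 294 ± 247 and 453 ± 201 (SD, n = 3 each), a log2 fold change of 0.63 with a 95% interval from −0.72 to 1.98 (adjusted p = 0.758).

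*Lrrn4*, a leucine-rich repeat membrane protein, is at chr2:132866686-132894010, minus strand, and overlaps *Crls1*, so reads of the pair could be mixed if strand was not used. Its normalized counts were 491, 200 and 152 in the Cre-negative ventricles and 623, 324 and 377 in the Cre-positive ones. Cre-positive replicate 1 alone exceeded every Cre-negative sibling. This gave a log2 fold change of 0.66 with a 95% interval from −0.36 to 1.68 (adjusted p = 0.717). *Crls1* itself had a log2 fold change of 0.004 (standard error 0.1).

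The promoters of *Upk3b* and *Lrrn4* are shown because Yap and Wwtr1 bind DNA through TEAD factors, and these were the only ones of the 6 marker promoters listed by RefSeq that held the letters GGAATG or, on the other strand, CATTCC, a core that TEAD factors bind. Each sequence runs from 250 bases before the start site to 50 after it, 5′ to 3′ on the strand of the gene, and the match is in capitals. The windows are chr5:136038246-136038545 on the plus strand and chr2:132880813-132881112 on the minus strand of GRCm38.p6, the second around a start that RefSeq lists inside the span of *Lrrn4*.
Upk3b: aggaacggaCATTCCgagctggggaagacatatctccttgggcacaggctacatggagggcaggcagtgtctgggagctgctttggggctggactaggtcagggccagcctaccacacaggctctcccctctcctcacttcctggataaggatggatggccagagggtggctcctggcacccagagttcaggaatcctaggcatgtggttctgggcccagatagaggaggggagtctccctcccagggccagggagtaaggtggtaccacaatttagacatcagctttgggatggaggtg
Lrrn4: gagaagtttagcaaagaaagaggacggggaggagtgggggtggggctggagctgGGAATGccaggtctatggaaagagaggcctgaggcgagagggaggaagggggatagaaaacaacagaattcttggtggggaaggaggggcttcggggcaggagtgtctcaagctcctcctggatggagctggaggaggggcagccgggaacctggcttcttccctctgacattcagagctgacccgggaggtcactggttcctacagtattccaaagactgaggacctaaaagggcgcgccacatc
The match begins 241 bases before the start site in *Upk3b* and 196 bases before it in *Lrrn4*. The same letters were found in 14.7% of the 32851 promoters of this length, so their presence is a description of the sequence only.

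*Upk1b*, a tetraspanin that pairs with other uroplakins, is at chr16:38773182-38800203. It had normalized counts of 335, 129 and 77.7 in the Cre-negative ventricles and 413, 162 and 269 in the Cre-positive ones. Its log2 fold change was 0.65 with a 95% interval from −0.59 to 1.89 (adjusted p = 0.736). *Msln*, the precursor of the surface protein mesothelin, is at chr17:25748613-25754378. It varied most of the 10, with normalized counts of 360, 177 and 74.8 without Cre and 613, 222 and 214 with it. Its highest TPM was 8.2-fold its lowest over the 6 ventricles. *Msln* had a log2 fold change of 0.79 with a 95% interval from −0.59 to 2.17 (adjusted p = 0.724). For all 4 surface genes the interval ran from below 0 to at least 1.68, so with 3 mice per genotype it held both no difference and differences larger than those measured.

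The keratins build intermediate filaments from a type II chain (*Krt8*) and a type I chain (*Krt18* or *Krt19*), so that *Krt8* needs a partner. *Krt8* and *Krt18* are neighbours on chromosome 15, at chr15:101996711-102004342 (minus strand) and chr15:102028216-102032026 (plus strand), 23873 bases apart. Their promoters are shown because these partner genes ranked the ventricles differently. The windows are chr15:102004293-102004592 and chr15:102027966-102028265, with TATAAA or its reverse TTTATA, the letters of a TATA box, in capitals where present.
Krt8: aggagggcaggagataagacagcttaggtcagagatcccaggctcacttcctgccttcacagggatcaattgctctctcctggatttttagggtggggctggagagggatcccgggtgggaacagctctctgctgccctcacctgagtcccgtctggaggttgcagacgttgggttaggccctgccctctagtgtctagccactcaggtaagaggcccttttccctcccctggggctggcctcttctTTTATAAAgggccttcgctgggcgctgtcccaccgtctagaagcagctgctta
Krt18: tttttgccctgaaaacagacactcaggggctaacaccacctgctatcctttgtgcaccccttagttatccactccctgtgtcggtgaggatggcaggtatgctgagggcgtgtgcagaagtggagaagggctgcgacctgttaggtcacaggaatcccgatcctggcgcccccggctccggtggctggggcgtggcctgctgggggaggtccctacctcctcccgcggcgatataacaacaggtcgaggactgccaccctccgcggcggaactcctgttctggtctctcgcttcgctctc
The *Krt8* promoter held both forms, overlapping at the start site itself, and that of *Krt18* held neither. At least 1 of these forms was present in 13.6% of all promoters of this length. Neither held the TEAD letters.

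*Krt18* had normalized counts of 112, 203 and 182 in the Cre-negative ventricles and 241, 306 and 243 in the Cre-positive ones. The genotypes did not overlap, and Cre-negative replicate 1 was the lowest. The means were 165 ± 47.8 and 263 ± 37.2 (SD, n = 3 each), a log2 fold change of 0.67 with a 95% interval from 0.15 to 1.19 (unadjusted p = 0.0186, adjusted p = 0.714). This result did not pass the correction over all genes. In the fits that left out a ventricle it stayed between 0.45 and 0.84.

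*Krt8* differed from its partner in these siblings, with 222, 91.2 and 63.1 normalized counts without Cre and 204, 150 and 165 with it. Cre-negative replicate 1 had the most of all 6 ventricles, where *Krt18* had the least. *Krt8* had a log2 fold change of 0.48 with a 95% interval from −0.50 to 1.45 (adjusted p = 0.752). By TPM the ratio of *Krt8* to *Krt18* was 1.52 in Cre-negative replicate 1 and 0.343 and 0.266 in the other siblings. In the Cre-positive ventricles that ratio was 0.647, 0.375 and 0.518. *Krt8* thus exceeded *Krt18* in a single ventricle of the 6.

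*Krt19*, the other type I keratin, is at chr11:100140810-100145926 and resembled *Krt8*. Its normalized counts were 317, 113 and 52.4 without Cre and 296, 146 and 213 with it. Its log2 fold change was 0.45 with a 95% interval from −0.89 to 1.79 (adjusted p = 0.818). Without Cre-positive replicate 3, the log2 fold changes of *Krt8*, *Krt18* and *Krt19* were 0.51, 0.72 and 0.47. Without Cre-negative replicate 3 they were 0.15, 0.74 and 0.03.

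The transcription factor *Wt1*, a zinc finger protein of the embryonic and injured epicardium, is at chr2:105126529-105173614. Its normalized counts were 457, 197 and 171 in the Cre-negative ventricles and 399, 256 and 359 in the Cre-positive ones. Cre-negative replicate 1 again had the most of all 6. *Wt1* had a log2 fold change of 0.30 with a 95% interval from −0.55 to 1.16 (adjusted p = 0.809). The antisense gene *Wt1os* was not found by symbol in the table.

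*Tbx18*, a T-box factor of the epicardium that mural cells of vessels also express, is at chr9:87702800-87731260 (minus strand). It was the steadiest marker, with normalized counts of 194, 194 and 199 without Cre and 231, 264 and 197 with it. The Cre-negative siblings differed by little, and 2 of the 3 Cre-positive ventricles lay above them. The difference came to 0.24 on the log2 scale with a 95% interval from −0.08 to 0.55 (adjusted p = 0.714).

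*Aldh1a2*, the enzyme that makes retinoic acid from retinal, is at chr9:71215789-71296243 (plus strand). Its normalized counts were 575, 544 and 610 in the Cre-negative ventricles and 873, 694 and 585 in the Cre-positive ones. As for *Tbx18*, the siblings were close together and Cre-positive replicate 3 was among them. The difference came to 0.32 on the log2 scale with a 95% interval from −0.02 to 0.65 (adjusted p = 0.714).

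**Figure D2:**
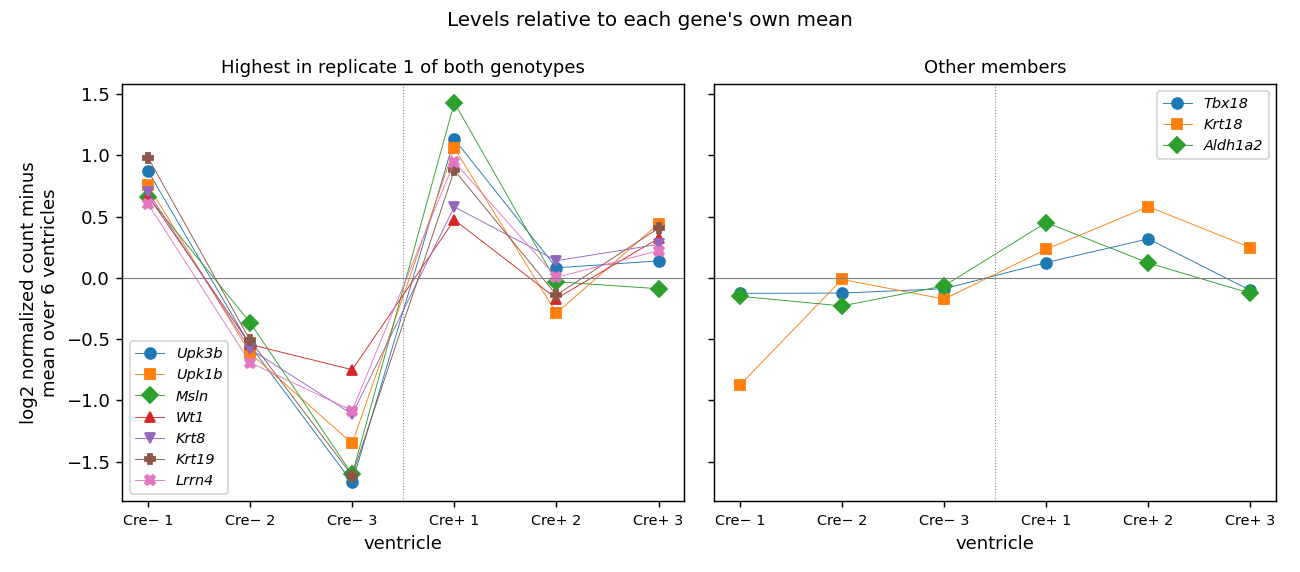
log2 normalized count of each marker minus its mean over the 6 ventricles (vertical axis), by ventricle (horizontal axis); thin lines only join the points of a gene, since replicates have no order. On the left, 7 markers are high in replicate 1 of both genotypes and lowest in Cre-negative replicate 3; on the right, *Tbx18*, *Krt18* and *Aldh1a2* are not.

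The markers fell into a set of 7 and a set of 3 by how ventricles ranked, a split made after the values were seen and not tested. In *Upk3b*, *Upk1b*, *Msln*, *Wt1*, *Krt8*, *Krt19* and *Lrrn4*, replicate 1 of both genotypes had the highest pair of normalized counts and Cre-negative replicate 3 had the lowest. The same order held for 2.92% of all genes tested. Summed over these 7 genes, the level was 149.8, 67.2 and 39.7 TPM in the Cre-negative ventricles and 196, 104 and 124 TPM in the Cre-positive ones. *Tbx18*, *Krt18* and *Aldh1a2* summed to 44.4, 56.4 and 58.6 TPM without Cre and to 80.7, 83.7 and 66.2 TPM with it. Cre-negative replicate 1 was lowest by TPM in each of the 3, but so it was for 51.1% of all genes.

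The order that defines the set of 7 places siblings far apart, so a wide spread within a genotype is part of that choice, and it is given as a description. On the log2 scale of library-scaled counts the within-genotype SD was 0.59 (*Wt1*) to 1.0 (*Msln*) in the 7 genes, at percentiles 93.9 to 98.7 of all genes tested. It was 0.15 for *Tbx18*, 0.21 for *Aldh1a2* and 0.35 for *Krt18*, at percentiles 39.4, 59.3 and 81.3. The median over all genes was 0.18.

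The comparison was also made leaving out each ventricle in turn. Without Cre-negative replicate 1, the median log2 fold change of the 10 markers was 1.24 instead of 0.55, and 8 of 10 had an unadjusted p under 0.05, all higher with Cre, against 3.58% of all genes. That ventricle was the highest Cre-negative one in the set of 7 by their choice, so leaving it out had to raise their log2 fold changes. *Upk3b* then had a log2 fold change of 1.54 (unadjusted p = 0.00497, adjusted p = 0.729, edgeR), *Krt19* 1.39 and *Krt8* 1.16, and no marker passed the adjusted threshold. Leaving out replicate 1 of both genotypes, a choice made after the data were seen, gave a median of 0.89 and 7 of 10 markers with an unadjusted p under 0.05, against 3.5% of all genes. The lowest p was then that of *Lrrn4*, whose log2 fold change was 0.99 (unadjusted p = 0.000496, adjusted p = 0.658, edgeR). Each of the 10 markers was above 0 in these fits too. The median was 0.22 without Cre-positive replicate 1, 0.27 without Cre-negative replicate 3 and 0.37 without Cre-negative replicate 2. In each of these 3 fits 1 member, *Krt18*, had an unadjusted p under 0.05 and was higher with Cre, beside 2.13%, 4.07% and 2.79% of all genes. Without Cre-positive replicate 2 no member had one (1.76% of all genes), and without Cre-positive replicate 3 there were 3, *Aldh1a2*, *Krt18* and *Tbx18* (2.01% of all genes). On the log2 scale *Msln* fell to 0.11 and *Upk3b* to 0.21 without Cre-positive replicate 1, where *Krt18* alone rose. *Wt1* fell to 0.05 and *Krt19* to 0.03 without Cre-negative replicate 3, where *Krt18*, *Aldh1a2* and *Tbx18* rose.

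**Figure D3:**
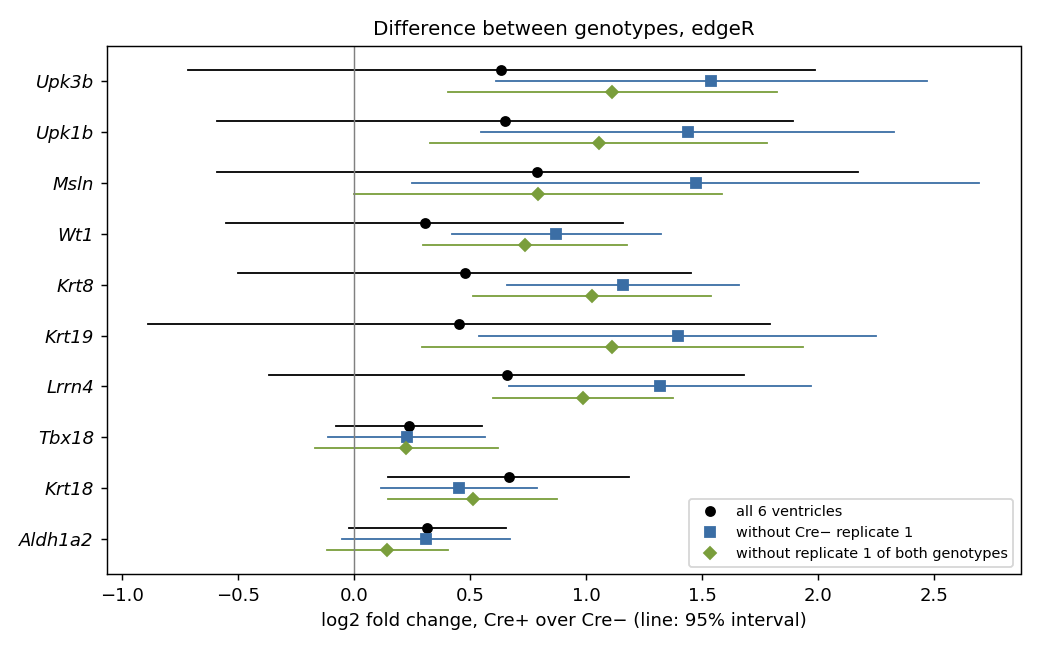
log2 fold change of Cre-positive over Cre-negative ventricles (horizontal axis) with 95% intervals, for all 6 ventricles (black), without Cre-negative replicate 1 (blue) and without replicate 1 of both genotypes (green). The 7 upper markers shift to the right when Cre-negative replicate 1 is left out (*Upk3b* from 0.63 to 1.54), while *Tbx18* stays near 0.23. The direction of this shift follows from how the 7 were chosen, since that ventricle is their highest without Cre.

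Markers of other tissues moved between the same ventricles. The 6 genes of the atrial list summed to 1362, 1006 and 208 TPM in the Cre-negative ventricles and to 2258, 98.1 and 508 TPM in the Cre-positive ones. Replicate 1 of both genotypes had the highest sums in atrial genes and in the 7 markers. Among the Cre-positive ventricles, replicate 2 had the lowest sum in both. The lowest of all 6 was Cre-positive replicate 2 in atrial genes and Cre-negative replicate 3 in the 7 markers. The atrial gene *Bmp10* was at 0 in 5 of the 6 ventricles and had 3.12 TPM in Cre-negative replicate 1. The 5 neutrophil genes summed to 413, 85.9 and 48.4 TPM without Cre and 156, 66.6 and 128 TPM with it. *S100a9* and *S100a8* made up most of the sum in Cre-negative replicate 1, with 203 and 152 TPM. Of these 5 granulocyte genes 2, *S100a8* and *Retnlg*, had the ventricle order of the 7 markers, beside 2.92% of all genes. *Csf3r* of the same list was lowest in Cre-negative replicate 1, with 12.29 TPM against 17.38 to 25.95 TPM in the other ventricles. The 5 adipocyte genes summed to between 819 and 1344 TPM, and *Adipoq*, a hormone of fat cells, had 39.9, 33.4 and 5.06 TPM without Cre and 34.1, 3.77 and 25.3 TPM with it.

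The 8 cardiomyocyte genes summed to 53632 to 63748 TPM without Cre and 48239 to 52166 TPM with it, and none of the 8 had a log2 fold change above 0 (51.2% of all genes did), with a median of −0.33. None of them passed the adjusted test in edgeR, and 2, *Myl2* and *Myl3*, had an unadjusted p under 0.05, beside 5.83% of all genes. The 7 fibroblast genes summed to 3402 TPM in Cre-negative replicate 1 and to 4709 to 6144 TPM in the other 5, the 6 endothelial genes to 429 and to 516 to 606 TPM, the 7 mural cell genes to 307 and to 343 to 474 TPM, and the 6 macrophage genes to 1636 and to 2086 to 2616 TPM. Among 8 markers of lung and other epithelium, *Scgb1a1* and *Scgb3a2* (8.15 TPM, at 0 elsewhere) marked Cre-positive replicate 3, whereas *Sftpc*, a gene of the alveoli, reached only 0.36 TPM. Of the thymus and skeletal muscle list, the skeletal myosin *Myh2* had 4.39 TPM in Cre-positive replicate 1 and at most 0.02 TPM elsewhere. The Y-linked list summed to 66.1 to 88.6 TPM in 4 ventricles and to 0.7 and 0.81 TPM in replicate 2 of each genotype. The part of these tissues in the levels of the markers was not tested.

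**Figure D4:**
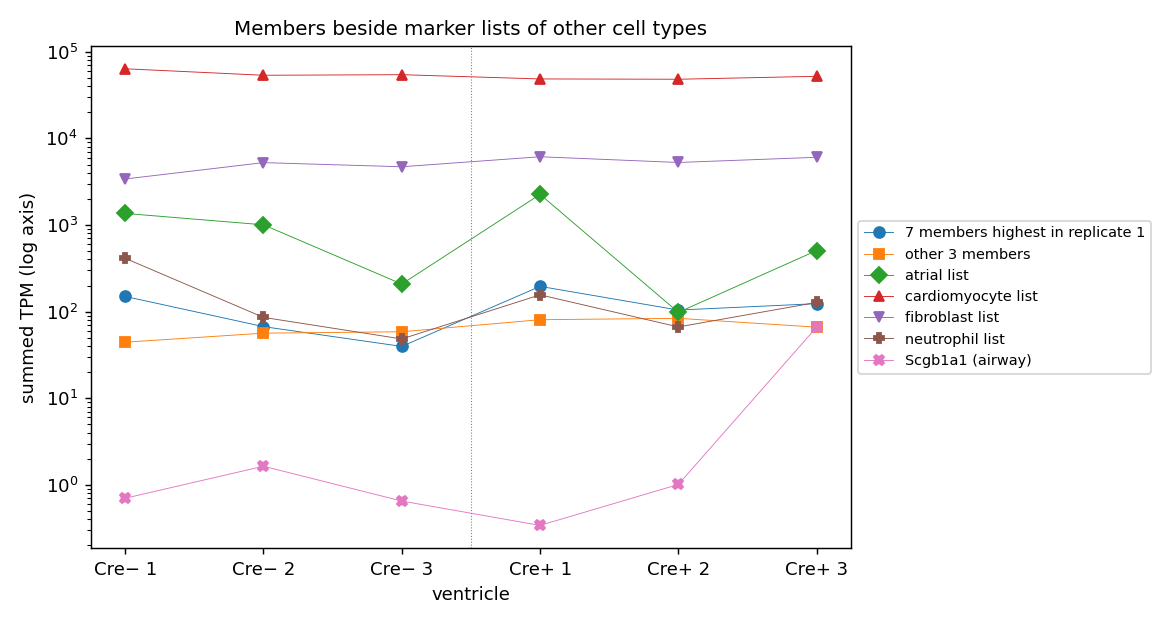
Summed TPM (vertical log axis) in each ventricle (horizontal axis) for the 7 markers highest in replicate 1, the other 3 markers, 4 marker lists and the airway gene *Scgb1a1*; thin lines only join points. The atrial sum ranges from 98.1 to 2258 TPM, and *Scgb1a1* stands out in Cre-positive replicate 3 alone.

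Of 20 other genes of the epicardium and mesothelium, 19 were tested, and 15 had a log2 fold change above 0 (51.2% of all genes did), with a median of 0.29. None passed the adjusted threshold in edgeR, and 2 of 19 had an unadjusted p under 0.05, against 5.83% of all genes. These were *Pdpn*, the membrane glycoprotein podoplanin (log2 fold change 0.29, standard error 0.11), and *Anxa8*, an annexin (0.93, standard error 0.39). In 11 of the 19 the ventricles ranked as in the 7 markers (2.92% of all genes), among them *Gpm6a*, *Dmkn*, *Rspo1*, *Nkain4*, *Bnc1* and *Muc16*, the binding partner of mesothelin. *Nkain4* had 31.2, 12.5 and 5.4 TPM without Cre and 30.2, 11.7 and 26.4 TPM with it. The 8 tested genes that did not rank so were *Bnc2*, *Pdpn*, *Sema3d*, *Scx*, *Tcf21*, *Anxa8*, *Saa3* and *Clu*. The genes with the highest mean levels in the list were *Clu* (3628 TPM), a secreted chaperone, *Saa3* (311 TPM), an acute phase protein, and *Pdpn* (50.9 TPM), and those with negative values were *Prg4* (−0.92), *Slpi* (−0.58), *Saa3* (−0.47) and *Scx* (−0.05).

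Of the other uroplakins and mesothelin relatives, 4 of 6 were found by symbol, *Upk1a* had at most 1.45 TPM and *Upk2* and *Mslnl* at most 0.32 TPM, and *Muc16* was the only gene tested (log2 fold change 0.88, standard error 0.69). Of 8 other keratins 4 were tested and none passed. *Krt7*, a simple-epithelium keratin that mesothelium expresses, had 6.76, 3.31 and 1.64 TPM without Cre and 11.4, 6.01 and 7.47 TPM with it (log2 fold change 0.96, standard error 0.52). *Krt14* and *Krt80* were the others with the highest levels, at means of 3.4 and 10.6 TPM. *Krt5* and *Krt17*, basal-cell keratins, were highest in Cre-positive replicate 3, with 3.03 and 2.31 TPM.

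Around *Aldh1a2*, 16 of 17 genes of the retinoic acid pathway were tested and 10 had a log2 fold change above 0 (51.2% of all genes did), with a median of 0.03 and no adjusted p under 0.714. An unadjusted p under 0.05 was found for 1 of the 16, beside 5.83% of all genes. *Crabp2*, which carries retinoic acid to its receptors, had 3.61, 1.53 and 1.37 TPM without Cre and 10.9, 4.39 and 6.1 TPM with it. Its log2 fold change was 1.6 (standard error 0.54, unadjusted p = 0.0192, adjusted p = 0.714, edgeR). *Aldh1a3*, another enzyme of this step, had 0.6 (standard error 0.29) and *Aldh1a1* 0.05 (standard error 0.23). The receptors *Rara*, *Rarb*, *Rarg*, *Rxra* and *Rxrb* lay between −0.12 and 0.02. *Dhrs3*, a retinal reductase, and *Rxrg*, a receptor, were among the genes with the highest mean levels (180 and 51.6 TPM), with log2 fold changes of −0.19 and −0.45.

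Of 8 genes of epithelial-mesenchymal transition all were tested, 7 were above 0 (51.2% of all genes were), none passed and 1 had an unadjusted p under 0.05, beside 5.83% of all genes. *Cdh1*, the epithelial cadherin, had 0.06 to 0.28 TPM without Cre and 0.47 to 0.72 TPM with it, which gave a fitted difference of 1.56 on the log2 scale (standard error 0.5, unadjusted p = 0.0147, adjusted p = 0.714, edgeR) that rests on 2 to 10 and 16 to 24 counts. *Vim*, *Cdh2* and *Snai1* had the highest mean levels, 1808, 143 and 62.0 TPM, with log2 fold changes of 0.18, −0.12 and 0.23.

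The genes whose ventricle pattern came closest to the average of the 10 markers were *Wwc1*, *Ddr1*, *Stau1*, *Dagla* and *Ankrd17*. Likeness was the root mean square difference of standardized log2 library-scaled counts over the 6 ventricles, and it was 0.22 to 0.25 for these 5 and 1.16 for the median gene. Among the markers it ran from 0.28 (*Lrrn4*) to 0.48 (*Wt1*) in the set of 7 and from 0.69 (*Aldh1a2*) to 1.05 (*Krt18*) in the other 3. The 7 are most of the 10 genes averaged, so their nearness to the average is partly built in. *Wwc1*, a scaffold protein of the Hippo pathway, was low, with 0.33, 0.19 and 0.11 TPM without Cre and 0.59, 0.43 and 0.4 TPM with it.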

How the data were processed

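The authors deposited estimated counts, TPM and FPKM values per gene and ventricle. Estimated counts are not normalized, and 11.5% are not whole, though those of the 10 markers are. TPM served for levels between genes. The deposited FPKM values and the authors' own comparison (log2 fold changes, p- and q-values) were not used. The submitters' processing notes name Bowtie2 2.2.5, RSEM 1.2.12 and GRCm38.p6. Strand use is not given in the sources used here. Positions (10 of 10) and promoters (6 of 10) are from RefSeq for GRCm38.p6.

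Rounded counts were fitted with edgeR 4.0.16 (R 4.3.3, TMM scaling, filterByExpr at 10 counts and a total of 15, leaving 13817 genes) and its quasi-likelihood test without covariates, with Benjamini-Hochberg adjustment over all genes and a threshold of 0.05. The code was tested on simulated data. Normalized counts are counts scaled by TMM to a common library size. Standard errors were derived from the F statistic. Library-scaled log2 counts used a prior count of 2. P-values weigh the difference between genotypes against the spread between the ventricles of a genotype. Alternatives were DESeq2 1.42.0, limma 3.58.1 on log2(TPM + 1) or log2(TPM + 0.1), other filters and size factors, a threshold of 0.1, Y-linked counts as a covariate, a replicate block and left-out ventricles.

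The markers and lists were chosen with earlier results of these data known. Named genes are the 10 markers, in each pathway list those passing the test and the 3 with the highest mean TPM, and the 5 genes nearest the mean marker profile. Others, such as *Crabp2*, *Cdh1*, *Krt7*, *Nkain4* and *Adipoq*, were chosen after their values were seen. A gene that the rule names is not reported here.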

Additional observations from a re-analysis of the deposited data

How the results depend on the processing

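The log2 fold change of each of the 10 markers was above 0 in all 15 alternatives, and no marker passed the adjusted threshold in any of them, nor at a threshold of 0.1. Leaving out each of the 6 ventricles in turn, the median of the markers ranged from 0.22 to 1.24 and the number of all genes passing from 0 to 2. The number of all genes passing was 1 in the main fit, 5 with DESeq2's Wald test and 2 with limma on log2(TPM + 1) and on log2(TPM + 0.1); the cause was not tested. In these limma fits on log2 TPM, which differ from the edgeR fit in unit, scaling and test, the median of all genes was 0.11 and 0.12, and that of the markers 0.80 and 0.85. Same-numbered ventricles correlated in their deviations by 0.354, 0.073 and −0.032, and Cre-negative replicate 3 correlated best with Cre-positive replicate 2 (0.354), so these correlations do not show that the numbers pair the mice. Same-numbered mice did match in Y-linked genes, which summed to 0.7 and 0.81 TPM in replicate 2 of each genotype and to at least 66 TPM elsewhere. Whether the numbers mark pairs is not given. With a replicate block 0 genes passed, 5 of 10 markers had an unadjusted p under 0.05 (8.81% of all genes did), and the median of the markers was 0.69. Depth was not varied, and its part in the absence of calls was not tested.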

Other observations

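Among the T-box genes and Wt1 partners, 5 of 6 were found and tested, 1 had a log2 fold change above 0 (51.2% of all genes did) and none passed in edgeR. An unadjusted p under 0.05 was found for 1 of the 5, beside 5.83% of all genes. This was *Tbx3*, a T-box repressor of the conduction system, with 8.26, 5.35 and 5.69 TPM in the Cre-negative ventricles and 3.94, 4.28 and 5.16 TPM in the Cre-positive ones (log2 fold change −0.67, standard error 0.23, unadjusted p = 0.0189, adjusted p = 0.714, edgeR). *Tbx20* and *Wtap*, with mean levels of 34.0 and 38.2 TPM, had log2 fold changes of −0.10 and 0.06, and *Tbx5*, at 20.8 TPM, had −0.38.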
